A study of Rattus norvegicus with 24 samples.

Results

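The genes described here encode the machinery that brings proteins into mitochondria, folds them and degrades them. They were chosen by name: every gene whose symbol starts with Timm or Tomm followed by a digit, and 15 listed chaperones, proteases and import factors, of which 14 were found. This gave 38 genes of the 17245 measured. Expression was measured in the liver of 24 male Wistar rats on whole-transcript arrays, with 1 array per rat. The rats were fed a low protein diet (5% protein) or a normal diet (20% protein) for 1 or 4 weeks. Each of the 4 groups, namely 5% protein for 1 week, 20% protein for 1 week, 5% protein for 4 weeks and 20% protein for 4 weeks, held 6 animals. The animals had different numbers in every group, so the animal was the replicate. All groups shared the strain, the sex and the tissue, and their age was not given in the labels. The title of the series concerns fatty liver and mitochondrial dysfunction in malnutrition and a rescue by fenofibrate, and fenofibrate animals were not analysed here. The percentages and times are those of the sample titles. In the sample descriptions the same animals carry codes of 4 or 18 for the diet, and the overall design mentions a 4 week period alone.

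Nearly all mitochondrial proteins are made in the cytosol and enter through the TOM complex of the outer membrane. Precursors with a presequence go on through the TIM23 complex of the inner membrane, pulled by a motor around the matrix Hsp70, and the presequence is then cut off. Carrier proteins are instead escorted by the small Tim chaperones to the TIM22 complex. In the matrix, chaperones fold the new proteins, and ATP-dependent proteases such as LONP1 and CLPP remove damaged or unassembled ones. Expression of several of these chaperones and proteases is known to rise when proteins misfold inside mitochondria.

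After 4 weeks, many genes of import and quality control were higher in the liver of rats on 5% protein than on 20% protein. The protease gene Lonp1 rose most, by 2.81-fold, followed by the small Tim gene Timm8a1, the matrix Hsp70 gene Hspa9, the outer membrane channel gene Tomm40 and the protease gene Clpp. In all, 19 of the 38 genes rose and 2 fell (Timm17b and Timm22), at an adjusted p below 0.05 in limma over all genes. Of all 17245 genes, 25.8% were called at 4 weeks, 13.4% higher and 12.4% lower. Dim genes are part of this share. With the dimmest genes left out, 2280 of 11496 genes were higher and 2126 lower. Of the 38 genes 37 then remained, with 20 higher and 3 lower. The median difference was 0.32 on the log2 scale for the 38 genes and -0.01 for all genes, and 30 of the 38 lay above 0. With the run of animal numbers (given below) as a covariate, the median of the 38 was 0.24. It was 0.25 in run 1 alone and 0.22 in run 3 alone, where 1 animal was on 5% protein. Among the 19 that rose, 10 did so by at least 1.5-fold. After 1 week fewer genes were called: 2 rose (Hspa9 and Dnaja3) and 1 fell (Timm17b), where 4.3% of all genes were called, 1.86% higher and 2.44% lower, and the median of the 38 was 0.04. Quantile normalization moved that split of all genes from 321 higher and 420 lower to 411 and 320. The median of the 38 at 1 week was then 0.09, while run 2 alone gave -0.04 and run 4 alone 0.06.

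**Figure D1:**
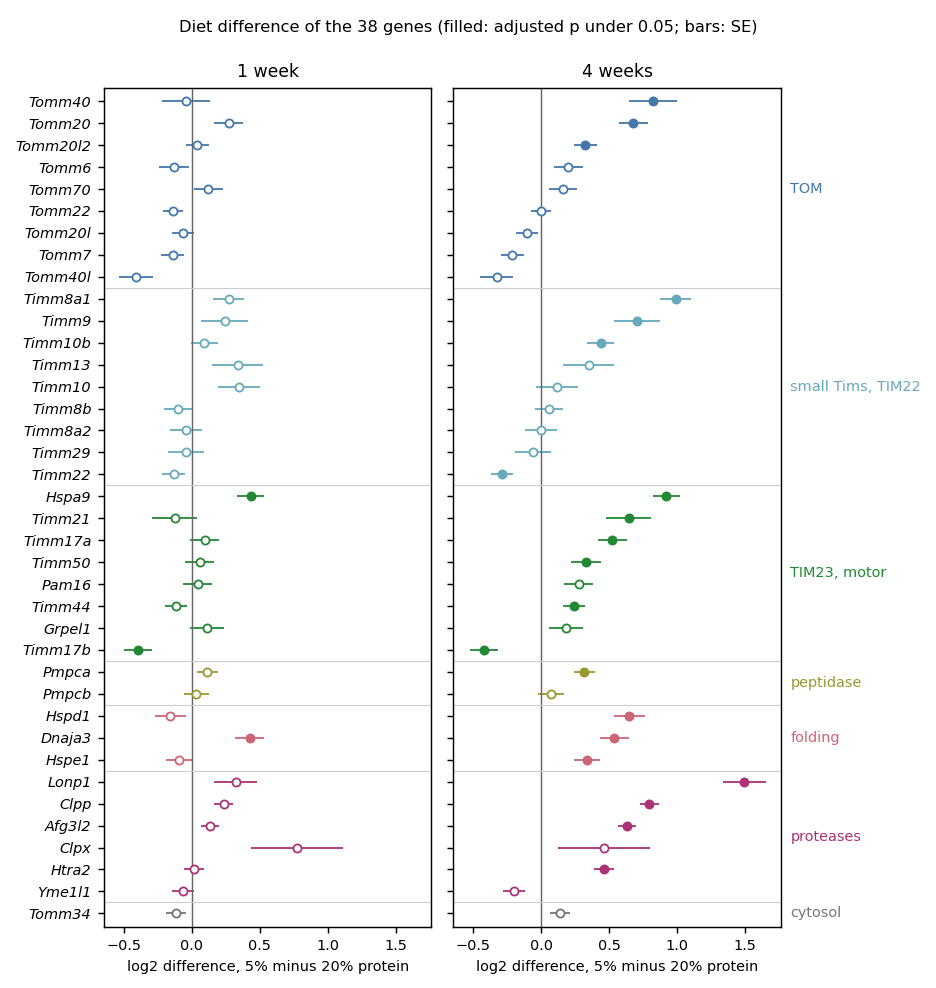
Difference between 5% and 20% protein (log2, x axis) for each of the 38 genes at 1 week (left) and 4 weeks (right), grouped by role and ordered by the difference at 4 weeks. Bars are standard errors and filled points have an adjusted p below 0.05. At 4 weeks 19 points are filled to the right of 0 and 2 to the left, and Lonp1 lies farthest right at 1.49.

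The groups of the diet comparison at 4 weeks did not overlap for 13 of the 38 genes, 12 higher and 1 lower, against 12.4% of all genes (6.55% higher and 5.88% lower). The mean log2 value over the 38 genes lay between 8.93 and 9.08 in the 5% animals at 4 weeks and between 8.63 and 8.73 in the 20% animals. After 1 week that mean lay between 8.80 and 8.97 on 5% protein and between 8.79 and 8.88 on 20% protein. As a description, the 38 genes together separated the diets at 4 weeks and not at 1 week.

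**Figure D2:**
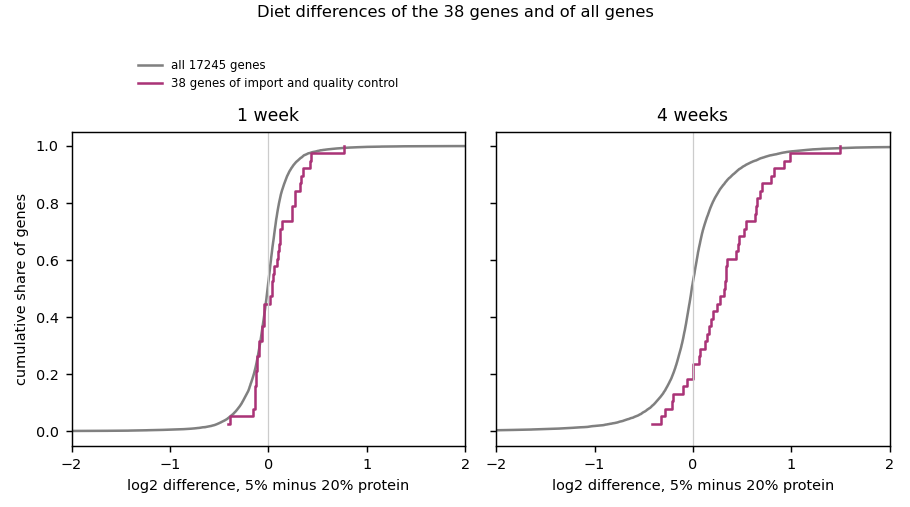
Cumulative share of genes (y axis, 0 to 1) by difference between 5% and 20% protein (log2, x axis), for the 38 genes and for all 17245 genes, at 1 week (left) and 4 weeks (right). The x axis is cut at 2 on either side. At 4 weeks the line of the 38 genes runs to the right of that of all genes, with a median of 0.32 against -0.01, and at 1 week with 0.04 against -0.01.

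The liver holds several cell types, and in bulk tissue fewer cells of a type and less RNA per cell cannot be told apart. At 4 weeks, 8 of 9 markers of Kupffer cells and macrophages fell on 5% protein, with a median of -0.59. The summed intensity of these markers was 3511 to 4450 in the 5% animals and 5187 to 8801 in the 20% animals. Of 7 hepatocyte markers, 3 fell (Ttr, Serpina1 and Cps1), with a median of -0.13, and their sums of 55945 to 67062 and 60776 to 72064 overlapped. For endothelial cells 2 of 4 markers fell, for erythroid cells 2 of 5 and for stellate cells and fibroblasts 1 of 6. Of the cholangiocyte markers 2 of 4 rose, and none of the adipocyte, lymphocyte or muscle markers was called. These counts stand beside 12.4% of all genes lower and 13.4% higher. At 1 week 2 of 5 erythroid markers fell and no other marker was called. The lowest intensity of the whole data was 3.27, so the absence of zeros says nothing of detection. Some markers that were not called were dim, such as Cd3d (group means of 3.79 to 3.95, log2) and Lep (4.26 to 4.43), while Nkg7 had 7.06 to 7.29. Whether the dim markers measure their genes was not tested. The part of these shifts in the results below was not tested either.

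Among the 9 genes of the outer membrane translocase, 3 rose at 4 weeks and 0 fell in limma, against 13.4% of all genes higher and 12.4% lower, with 3 higher and 2 lower at an unadjusted p below 0.05. At that unadjusted level, 20 of the 38 genes were higher and 5 lower, against 35.4% of all genes in either direction. Tomm40 encodes the channel through which almost all precursors pass. Its log2 intensity at 4 weeks ran from 9.17 to 9.57 on 5% protein (median 9.26) and from 8.03 to 9.08 on 20% protein (median 8.34). The 1 week values ran from 8.62 to 9.40 (median 9.02) and from 8.44 to 9.37 (median 9.12). All 5% animals lay above all 20% animals at 4 weeks, while the groups covered the same range at 1 week. The difference was 0.82 ± 0.18 (SE, n = 6 per group) at 4 weeks, with an adjusted p of 0.000969 in limma, and -0.04 ± 0.18 at 1 week, with an adjusted p of 0.949. Tomm40 also differed between runs of animal numbers, as given with the runs below.

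Tomm20, the receptor that recognises presequences, rose by 0.68 ± 0.11 at 4 weeks without overlap (adjusted p = 4.63e-05, limma), with 0.27 ± 0.11 at 1 week (adjusted p = 0.175). The remaining receptors and small subunits were not called. Tomm70, a receptor for carrier precursors, had a difference of 0.16 ± 0.10 at 4 weeks, and Tomm22, the central receptor, had 0.00 ± 0.07. The small subunits Tomm6 and Tomm7, which help hold the complex together, had differences of 0.20 and -0.21. For Tomm70 and Tomm7 a further probe set (a group of probes summarised as 1 value) gave 0.16 and -0.19. Thus, within this complex, the channel and the presequence receptor were called and the other general subunits analysed were not. Tomm5 had a shared probe set only and was not among them. Whether the subunits differed from one another was not tested.

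Of the related gene copies, Tomm40l, a second channel gene, was not called in either week. Its difference was -0.41 ± 0.12 at 1 week (adjusted p = 0.0615, limma) and -0.33 ± 0.12 at 4 weeks (adjusted p = 0.0555), opposite in sign to Tomm40 at 4 weeks. Tomm20l and Tomm20l2 are named as Tomm20-like genes, and their probe sets had the lowest mean values of the 38 genes. Tomm20l ran from 4.20 to 4.68 (median 4.52) on 5% and from 4.44 to 4.74 (median 4.62) on 20% protein at 4 weeks. Its 1 week range was 4.26 to 4.51 (median 4.46) on 5% and 4.38 to 4.72 (median 4.47) on 20% protein. The groups of Tomm20l overlapped in both weeks, and neither difference (-0.06 and -0.10) was called.

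Tomm20l2 ran from 5.23 to 5.79 (median 5.50) on 5% and from 5.04 to 5.29 (median 5.13) on 20% protein at 4 weeks. After 1 week it ran from 5.12 to 5.53 (median 5.23) and from 5.13 to 5.37 (median 5.25). It rose by 0.32 ± 0.08 at 4 weeks (adjusted p = 0.00548, limma), with groups that touched. The values carry no detection call, so whether a probe set this dim measures its gene was not tested. Tomm34, a cytosolic cochaperone that binds precursors, had differences of -0.11 and 0.14 at 1 and 4 weeks, neither called.

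Of the 9 genes of the small Tim chaperones and the carrier translocase, 3 were higher, 1 lower and 5 not called at 4 weeks, against 13.4% of all genes higher and 12.4% lower. Timm8a1 encodes a small Tim that shields hydrophobic precursors in the intermembrane space. At 4 weeks it ran from 9.10 to 9.43 on 5% protein (median 9.28) and from 7.97 to 8.74 on 20% protein (median 8.30). The values after 1 week were 8.76 to 9.24 (median 9.02) and 8.51 to 8.89 (median 8.77). The diets were fully separate at 4 weeks and overlapped at 1 week. Timm8a1 rose by 0.99 ± 0.12, a fold of 1.98 (adjusted p = 9e-07, limma), with 0.27 ± 0.12 at 1 week (adjusted p = 0.211).

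Timm9, which forms the main small Tim chaperone with Timm10, rose by 0.71 ± 0.17 at 4 weeks (adjusted p = 0.00302, limma), without overlap. Its partner Timm10 had a difference of 0.12 ± 0.15, which was not called. Timm13, the partner of Timm8 proteins, had 0.35 ± 0.19 (adjusted p = 0.189), and Timm8b and Timm8a2 had 0.06 and 0.00. So Timm9 was called and Timm10 was not, and Timm8a1 was called while Timm13, Timm8b and Timm8a2 were not. The unequal calls do not show that the partners differed, since that was not tested. Timm10b, a small Tim attached to TIM22, rose by 0.44 ± 0.10 (adjusted p = 0.00150).

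Timm22 encodes the channel for carrier proteins and was 1 of the 2 genes that fell. At 4 weeks it ran from 6.60 to 7.11 on 5% protein (median 6.89) and from 6.98 to 7.29 on 20% protein (median 7.22), and at 1 week from 7.03 to 7.29 (median 7.08) and from 7.10 to 7.49 (median 7.23). The 5% animals lay lower with some overlap in both weeks. The difference was -0.29 ± 0.08 at 4 weeks (adjusted p = 0.0112, limma) and -0.13 ± 0.08 at 1 week (adjusted p = 0.436). Timm29, another subunit of TIM22, had a difference of -0.06 ± 0.13 at 4 weeks.

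The presequence translocase and its import motor had 5 genes higher, 1 lower and 2 not called among 8 at 4 weeks. Of all genes, 13.4% were higher and 12.4% lower. Hspa9 encodes mortalin, the Hsp70 that pulls precursors into the matrix. At 1 week it already ran from 11.49 to 11.92 on 5% protein (median 11.73) and from 11.08 to 11.47 on 20% protein (median 11.28). At 4 weeks the ranges were 11.82 to 12.21 (median 12.00) and 10.85 to 11.28 (median 11.17). Hspa9 was the only one of the 38 genes whose diet groups were separate in both weeks and that rose in both. The rise was 0.43 ± 0.10 at 1 week (adjusted p = 0.0114, limma) and 0.92 ± 0.10 at 4 weeks (adjusted p = 2.29e-07). Among all genes, 2.56% had separate groups at 1 week, and 1.2% had them with the 5% animals higher.

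Timm17b was lower on 5% protein in both weeks. It is one of the alternative forms of the Tim17 subunit, which lines the translocase; Timm17a is the other. At 4 weeks Timm17b ran from 8.84 to 9.03 on 5% (median 8.91) and from 9.12 to 9.57 on 20% protein (median 9.36), and at 1 week from 8.50 to 9.13 (median 8.94) and from 9.0 to 9.56 (median 9.27). The groups were separate at 4 weeks and overlapped at 1 week. The differences were -0.42 ± 0.10 (adjusted p = 0.00298, limma) and -0.39 ± 0.10 (adjusted p = 0.0265). Timm17a, by contrast, rose by 0.52 ± 0.11 at 4 weeks (adjusted p = 0.000710), while its dimmer probe set gave 0.26 ± 0.10, with an adjusted p of 0.0577 in a fit of all probe sets.

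Timm21, which links TIM23 to the respiratory chain and TOM, rose by 0.65 ± 0.16 (adjusted p = 0.00464, limma). Timm50, the receptor of TIM23, rose by 0.33 ± 0.11 (adjusted p = 0.0241), and Timm44, which tethers the Hsp70 to the channel, by 0.24 ± 0.08 (adjusted p = 0.0259). Both of the last calls were lost when single animals were left out. For Timm50 these were 5% animals 23 and 32 and 20% animals 29 and 63 (0.28 to 0.31, adjusted p up to 0.0654). For Timm44 they were 5% animals 31, 32 and 59 and 20% animals 67 and 72 (0.18 to 0.23, adjusted p up to 0.0821). Pam16, a regulator of the motor, had 0.28 ± 0.11 (adjusted p = 0.0618), and its other probe set 0.41 ± 0.12 (adjusted p = 0.0160 over all probe sets). Grpel1, the nucleotide exchange factor of the matrix Hsp70, had 0.19 ± 0.12 and was not called.

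Of the subunits of the processing peptidase, which cuts off the presequence, Pmpca rose by 0.32 ± 0.08 at 4 weeks without overlap (adjusted p = 0.00240, limma). Pmpcb, the catalytic subunit, had 0.07 ± 0.09 and was not called.

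All 3 genes of the matrix folding chaperones rose at 4 weeks, against 13.4% of all genes higher. Hspd1 encodes the chaperonin Hsp60, in whose chamber proteins fold, and Hspe1 its lid Hsp10. Hspd1 ran from 11.28 to 11.84 on 5% protein (median 11.68) and from 10.67 to 11.28 on 20% protein (median 10.90) at 4 weeks. After 1 week it ran from 11.13 to 11.57 (median 11.37) and from 11.27 to 11.63 (median 11.59). The 5% animals were higher at 4 weeks with the ranges just meeting, and at 1 week the ranges overlapped widely with the lower median on 5% protein. Hspd1 rose by 0.65 ± 0.11 at 4 weeks (adjusted p = 0.000137, limma), with -0.16 ± 0.11 at 1 week (adjusted p = 0.520). Hspe1 rose by 0.34 ± 0.10 (adjusted p = 0.0105), with -0.09 ± 0.10 at 1 week. In run 1 of the animal numbers (given below) Hspe1 had 0.14 ± 0.14 at 4 weeks (adjusted p = 0.551, limma). With the run as a covariate it had 0.25 ± 0.11 (adjusted p = 0.113). The call of Hspd1 was also lost in run 1, as given with the runs.

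Dnaja3 encodes a J-domain cochaperone of the matrix Hsp70. At 1 week it ran from 9.84 to 10.54 on 5% protein (median 10.41) and from 9.64 to 9.95 on 20% protein (median 9.91), and at 4 weeks from 9.96 to 10.52 (median 10.14) and from 9.49 to 9.75 (median 9.64). The groups overlapped at 1 week through 1 low 5% animal and were separate at 4 weeks. The rise was 0.43 ± 0.11 at 1 week (adjusted p = 0.0241, limma) and 0.54 ± 0.11 at 4 weeks (adjusted p = 0.000545).

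The region before the start of Hspd1 and Dnaja3 is shown because these 2 genes, among those described in full, held searched motifs in the RefSeq promoter table (rat assembly GRCr8). The array files name no build. Hspd1 lies before its start at chr9:64084038-64084287 on the minus strand, and Dnaja3 at chr10:11386600-11386849 on the minus strand. Each line gives the 250 bases before the start, 5′ to 3′. Capitals mark matches to the letters CCGGAAG (ETS type), to an NRF1 consensus and to a heat shock element, each searched on both strands.
Hspd1: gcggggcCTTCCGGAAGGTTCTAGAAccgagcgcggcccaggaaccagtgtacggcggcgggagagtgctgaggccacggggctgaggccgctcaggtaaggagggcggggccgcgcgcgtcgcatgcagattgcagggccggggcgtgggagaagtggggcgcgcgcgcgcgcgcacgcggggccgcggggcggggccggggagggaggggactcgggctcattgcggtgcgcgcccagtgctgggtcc
Dnaja3: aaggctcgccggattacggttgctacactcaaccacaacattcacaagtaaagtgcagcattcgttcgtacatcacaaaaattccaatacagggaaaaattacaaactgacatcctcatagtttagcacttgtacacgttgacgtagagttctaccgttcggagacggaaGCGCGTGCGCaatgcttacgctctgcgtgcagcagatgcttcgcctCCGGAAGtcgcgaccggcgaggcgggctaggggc

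In Hspd1 the capital block holds the ETS type letters and a heat shock element that overlap each other. Hspd1 and Hspe1 are neighbours on opposite strands, with 289 bases between their starts, so the block also lies before Hspe1 and is the same DNA. Both genes had their values at 4 weeks given above, 0.65 and 0.34 higher on 5% protein. Of the 38 genes, 33 had a promoter in the table, and Clpx, Htra2, Lonp1, Timm29 and Tomm34 had none there.

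Over the 33 promoters, the ETS type letters occurred in 14 (42.4%), against 10.8% of 14048 promoters of measured genes. They occurred in 6 of the 17 promoters of genes that rose at 4 weeks and in 8 of the other 16. The NRF1 consensus occurred in 6 (18.2% against 6.46%), namely Dnaja3, Grpel1, Pam16, Timm21, Tomm20 and Tomm7. It was in 3 of the 17 promoters of genes that rose at 4 weeks and in 3 of the other 16. The heat shock element occurred in 2 (6.06% against 0.513%), those of Hspd1 and Hspe1, which share 1 stretch of DNA. The letters TGATGNAAT, of the type bound by CHOP and ATF4, were in 0 of 33 (0.683% of all), the shorter TGCAAT in 3 (9.09% against 6.34%) and a YY1 consensus in 0 (0.520% of all). These are matches of letters only, and no binding was measured.

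Among 6 proteases and their partners, 4 rose and 0 fell at 4 weeks, against 13.4% of all genes higher and 12.4% lower. Lonp1 encodes the main ATP-dependent protease of the matrix. On 5% protein at 4 weeks it ran from 11.00 to 11.82 (median 11.25), and on 20% protein from 9.70 to 10.07 (median 9.83). The 1 week animals ran from 9.56 to 10.49 (median 10.18) on 5% and from 9.62 to 10.04 (median 9.75) on 20% protein. Every 5% animal at 4 weeks was higher than every animal of the other 3 groups, which overlapped one another. Lonp1 rose by 1.49 ± 0.16 at 4 weeks, a fold of 2.81 (adjusted p = 1.88e-07, limma), with 0.32 ± 0.16 at 1 week (adjusted p = 0.286). Its second probe set gave 1.55 ± 0.17 at 4 weeks and 0.52 ± 0.17 at 1 week.

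Clpp encodes the proteolytic chamber of the ClpXP protease. At 4 weeks it ran from 10.08 to 10.35 on 5% protein (median 10.17) and from 9.27 to 9.55 on 20% protein (median 9.35), and at 1 week from 9.97 to 10.24 (median 10.14) and from 9.79 to 9.98 (median 9.89). The diets were separate at 4 weeks and barely overlapped at 1 week. Clpp rose by 0.79 ± 0.07, a fold of 1.73 (adjusted p = 1.06e-08, limma), at rank 47 of all genes by p. At 1 week the difference was 0.24 ± 0.07 (adjusted p = 0.0518).

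Clpx encodes the ATPase that unfolds substrates for Clpp. Its difference was 0.77 ± 0.34 at 1 week and 0.46 ± 0.34 at 4 weeks, neither called. The 20% animals fell into separate levels. Animals 29, 30, 51, 52, 53 and 63 lay between 9.0 and 9.41, and animals 67, 72, 73, 77, 78 and 79 between 10.51 and 10.92. The 12 animals on 5% protein lay between 10.22 and 11.20.

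Afg3l2, a subunit of the inner membrane protease that faces the matrix, rose by 0.63 ± 0.07 without overlap (adjusted p = 1.76e-07, limma). Yme1l1, the protease that faces the intermembrane space, had -0.20 ± 0.08 (adjusted p = 0.0713) and was not called. Htra2, a serine protease of the intermembrane space, ran from 8.72 to 9.21 on 5% protein (median 8.94) and from 8.33 to 8.62 on 20% protein (median 8.54) at 4 weeks. At 1 week it ran from 8.58 to 8.72 (median 8.67) and from 8.55 to 8.70 (median 8.65). The groups were separate at 4 weeks and nearly identical at 1 week. Htra2 rose by 0.46 ± 0.07 (adjusted p = 4.25e-05), with 0.02 ± 0.07 at 1 week.

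**Figure D3:**
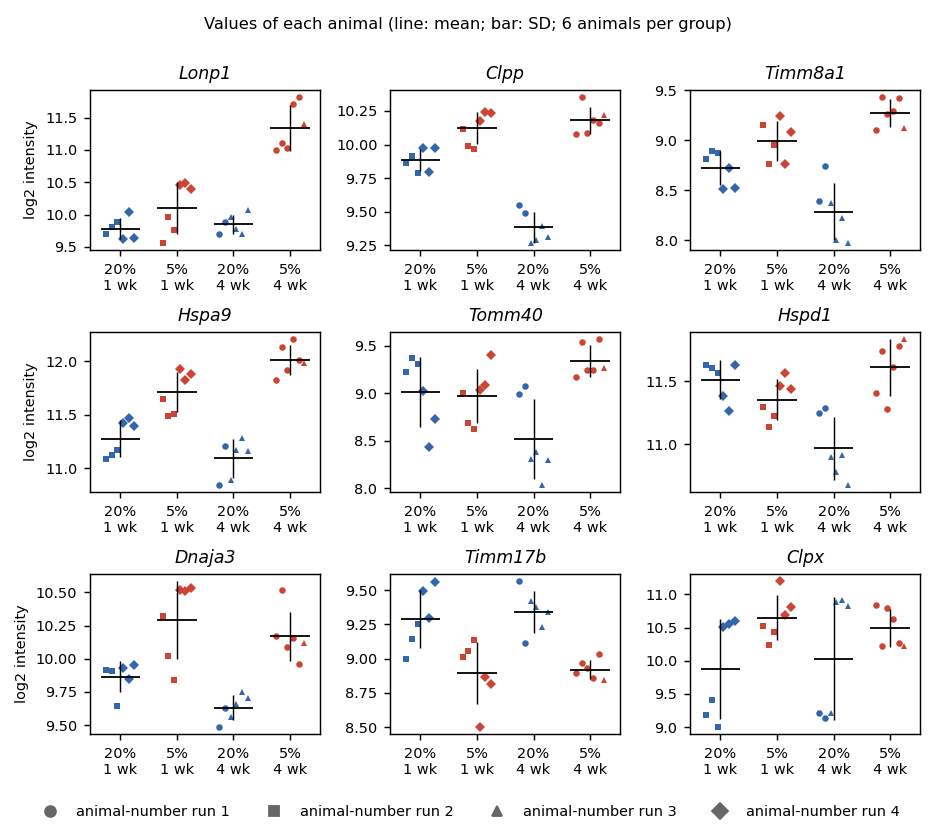
Log2 intensity (y axis) of each animal in the 4 groups (x axis) for 9 genes, with the group mean as a line, the SD as a bar, and a marker for each run of animal numbers. Lonp1 on 5% protein at 4 weeks lies between 11.00 and 11.82, above every animal of the other groups, and the 20% animals of Clpx lie in separate levels.

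The effect of diet grew between 1 and 4 weeks for 8 of the 38 genes and shrank for 0. This test of the difference between the diet effects called 5.75% of all genes, 3.54% higher and 2.2% lower (611 and 380 genes, or 510 and 481 after quantile normalization). At an unadjusted p below 0.05 17 of the 38 were higher and 0 lower, against 21% of all genes in either direction. The 8 genes were Lonp1 (1.17 ± 0.22, adjusted p = 0.00436, limma), Tomm40 (0.87 ± 0.25, adjusted p = 0.0400), Hspd1 (0.81 ± 0.16, adjusted p = 0.00561), Timm8a1 (0.72), Clpp (0.56), Afg3l2 (0.50), Hspa9 (0.49, adjusted p = 0.0394) and Htra2 (0.45). They include 4 of the 6 proteases and their partners. All 8 were among the genes that rose at 4 weeks. The median over the 38 genes was 0.24.

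With the run of animal numbers (given below) as a covariate, 6 of the 8 calls remained. Timm8a1 then had 0.55 ± 0.16 (adjusted p = 0.0575, limma) and Tomm40 0.61 ± 0.24 (adjusted p = 0.165). Tomm40 was also not called with the number of the title code as a covariate (0.87 ± 0.26, adjusted p = 0.0535). The calls of Hspa9 and Tomm40 in that test also depended on single animals. The call of Hspa9 was lost without any 1 of 14 animals, namely 49, 50 and 54 (5%, 1 week), 77, 78 and 79 (20%, 1 week), 23, 31, 32 and 59 (5%, 4 weeks) and 29, 63, 67 and 73 (20%, 4 weeks), with values of 0.44 to 0.50. That of Tomm40 was lost without any 1 of 16 animals, namely 49, 50, 54 and 74, 51, 52, 53 and 77, 23, 31, 32 and 59, and 63, 67, 72 and 73 of the same groups, with values of 0.77 to 0.89.

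The growth of the effect came with different changes over time on each diet. No run of animal numbers held both weeks. Changes over time, and changes of the diet effect between the weeks, therefore cannot be told apart from differences between runs. On 20% protein at 1 week, runs 4 and 2 differed for 10.8% of all genes (limma), with 3 of the 38 higher and 4 lower in run 4. Between the runs, 0.783% of all genes and 0 of the 38 differed on 5% protein at 1 week. Runs 3 and 1 differed for 1.8% of all genes on 20% protein at 4 weeks, with 1 of the 38 higher and 1 lower in run 3. On 20% protein, 5 of the 38 genes fell from 1 to 4 weeks and 0 rose, where 2.52% of all genes were called, 1.02% higher and 1.5% lower (176 and 259 genes, or 215 and 206 after quantile normalization). At an unadjusted p below 0.05, 14 of the 38 were lower and 0 higher, against 16.3% of all genes in either direction. The 5 genes were Hspd1 (-0.55 ± 0.11, adjusted p = 0.00767, limma), Clpp (-0.50 ± 0.07, adjusted p = 9.85e-05), Timm8a1 (-0.44), Hspe1 (-0.42) and Afg3l2 (-0.27). Clpp was the 1 gene of the 38 whose groups did not overlap in this comparison (1.95% of all genes, 1.07% lower).

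The call of Timm8a1 over time on 20% protein was lost without any 1 of animals 51, 52, 53, 78, 63, 67, 72, 73 and 31 (-0.45 to -0.37), and that of Afg3l2 without 51, 52, 77, 67, 72 or 73 (-0.26 to -0.22).

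On 5% protein, 4 genes rose from 1 to 4 weeks and 0 fell, where 8.29% of all genes were called, 4.15% higher and 4.13% lower. At an unadjusted p below 0.05, 10 of the 38 were higher and 3 lower, against 21.5% of all genes in either direction. Lonp1 rose by 1.24 ± 0.16 (adjusted p = 7.73e-05, limma), Htra2 by 0.32 ± 0.07 (adjusted p = 0.00880), Tomm34 by 0.25 ± 0.07 (adjusted p = 0.0384) and Afg3l2 by 0.23 ± 0.07 (adjusted p = 0.0323). Lonp1 and Afg3l2 had groups without overlap, both higher at 4 weeks (3.75% of all genes, 1.82% higher and 1.94% lower). The call of Tomm34 was lost without animal 49, 50, 54, 76, 23, 31 or 32 (0.20 to 0.24), and that of Afg3l2 without 49, 50, 54, 22, 23 or 32 (0.21 to 0.23). For Lonp1 the change on 20% protein was 0.07 ± 0.16, and for Clpp that on 5% protein was 0.06 ± 0.07, neither called. Over the same weeks 6 of 9 markers of Kupffer cells and macrophages fell on 5% protein and 0 of 9 were called on 20% protein. On 5% protein 2 of 4 endothelial, 1 of 5 erythroid and 1 of 7 hepatocyte markers also fell, and on 20% protein 1 of 5 erythroid markers fell. No other marker was called over time, and the part of these shifts was not tested.

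**Figure D4:**
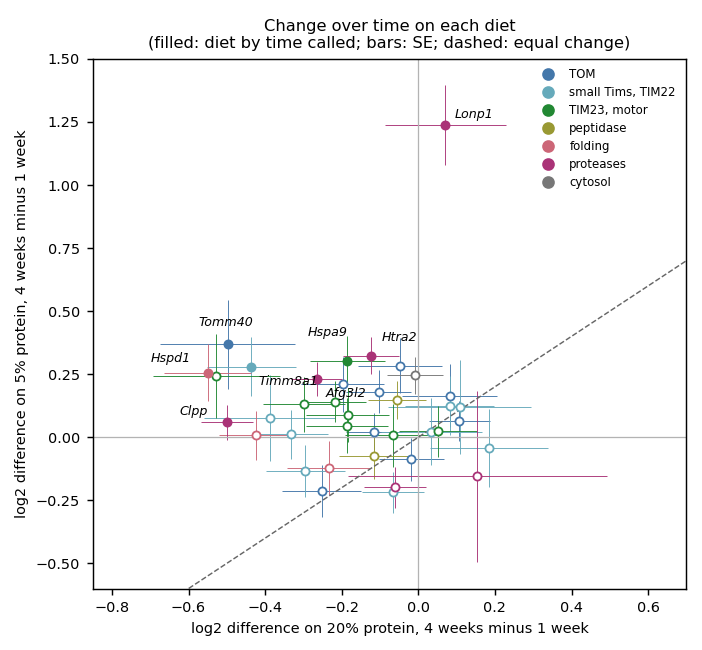
Change from 1 to 4 weeks on 20% protein (log2, x axis) against the change on 5% protein (log2, y axis) for the 38 genes, coloured by role, with standard errors as bars. Filled points are the 8 genes called for diet by time, all above the dashed line of equal change. Lonp1 lies at 0.07 and 1.24, and Clpp at -0.50 and 0.06.

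The animal numbers in the titles fall into 4 runs, and the diets were compared within each. Runs 2 (animals 49 to 54) and 4 (74 to 79) were fed for 1 week, with 3 animals per diet each. Runs 1 (22 to 32) and 3 (59 to 73) were fed for 4 weeks, with 5 and 1 animals on 5% protein and 2 and 4 on 20% protein. The spread in these comparisons was pooled over all groups and runs. The 1 animal on 5% protein in run 3, animal 59, has no spread of its own and was assumed to vary like the others. The titles also hold a code of a letter and a number, whose meaning is not given in the labels. At 1 week no letter of this code held both diets, so diet cannot be told apart from differences between letters there. At 4 weeks only letters B and E held both diets, while A and C held 5% animals and F held 20% animals.

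At 4 weeks Lonp1 was 1.54 ± 0.19 higher in run 1. In run 3, where animal 59 was set against 4 animals on 20% protein, it was 1.51 ± 0.25 higher. Hspa9, Clpp, Timm8a1 and Afg3l2 were also called higher in run 1 and for animal 59 in run 3, and Timm17b was called lower in both. In run 1 alone 13 of the 38 genes rose and 1 fell (15.9% of all genes called, 8.32% higher and 7.54% lower). For animal 59 in run 3, 7 were called higher and 1 lower (12.3% of all genes, 6.83% higher and 5.49% lower). Tomm40 had 0.32 ± 0.15 in run 1 (adjusted p = 0.168, limma) and 1.02 ± 0.20 in run 3 (adjusted p = 0.00233). Hspd1 had 0.30 ± 0.12 (adjusted p = 0.104) and 1.02 ± 0.16 (adjusted p = 0.000394). The difference between the runs at 4 weeks also rests on animal 59. It was called for 0 of the 38 genes in limma and for 0.029% of all genes. With a single 5% animal in run 3, this does not show that the runs were alike. Clpx had 1.37 ± 0.31 in run 1 (adjusted p = 0.00431) and -0.23 ± 0.41 in run 3.

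At 1 week the diet effect differed between the runs for 8 of the 38 genes, higher in run 4 for 5 and lower for 3, where 7.29% of all genes were called, 4.76% higher and 2.53% lower. Timm9 had -0.30 in run 2 and 0.78 in run 4, and Tomm40 had -0.53 and 0.45. Timm29, Tomm70 and Tomm20 were also higher in run 4, and Timm17b (-0.06 and -0.72), Tomm7 and Pmpcb were lower. Hspa9 had 0.42 and 0.44, called in each run. Lonp1 had -0.04 ± 0.19 in run 2 and 0.69 ± 0.19 in run 4 (adjusted p = 0.0237, limma), and the difference between these was not called (0.72 ± 0.26, adjusted p = 0.101). Dnaja3 had 0.24 ± 0.13 (adjusted p = 0.294) and 0.61 ± 0.13 (adjusted p = 0.00469).

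In run 4 alone 8 of the 38 genes rose and 2 fell (8.49% of all genes called, 4.04% higher and 4.45% lower). In run 2 alone 2 rose and 2 fell (7.57% of all genes, 2.86% higher and 4.71% lower). The 1 week calls of Dnaja3 and Timm17b also turned on single animals. Without 5% animal 74, 75 or 76 or 20% animal 53, Dnaja3 had 0.38 (adjusted p up to 0.0761). Without 5% animal 74, 75 or 76 or 20% animal 77 or 79, Timm17b had -0.39 to -0.31 (adjusted p up to 0.0830). The call of Hspa9 at 1 week held without any single animal (0.39 to 0.48).

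**Figure D5:**
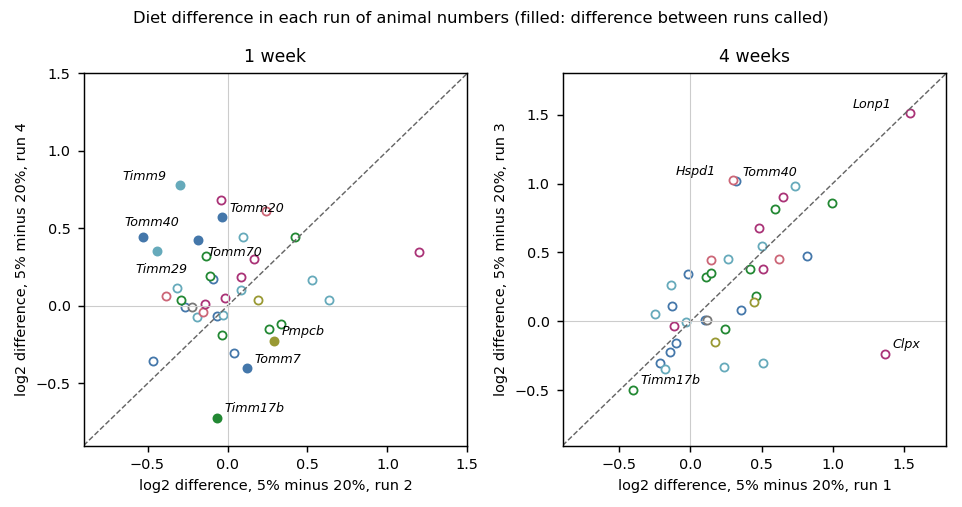
Difference between 5% and 20% protein (log2) within each run of animal numbers, at 1 week (run 2 on the x axis, run 4 on the y axis) and at 4 weeks (run 1 and run 3). Filled points are genes whose difference between runs was called, 8 at 1 week and 0 at 4 weeks, where run 3 holds 1 animal on 5% protein. The dashed line marks equal differences. Lonp1 at 4 weeks lies at 1.54 and 1.51, and Clpx at 1.37 and -0.23.

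Other genes of the same pathways, from a list of 27 with 19 measured, were set beside the 38. At 4 weeks 9 of the 19 rose and 0 fell, with a median of 0.24, against 13.4% of all genes higher and 12.4% lower. At 1 week 0 were called in limma, and 3 had an unadjusted p below 0.05, against 17.7% of all genes. Pitrm1, the protease that degrades cut presequences, rose by 1.08 ± 0.12 (adjusted p = 4.18e-07, limma). Bcs1l, which inserts the Rieske protein into complex III, rose by 0.85 ± 0.12 (adjusted p = 9.04e-06). Samm50, the channel that inserts outer membrane proteins, rose by 0.84 ± 0.13 (adjusted p = 2.55e-05), and Chchd4, the import receptor of the intermembrane space, by 0.77 ± 0.15 (adjusted p = 0.000489). The other 5 that rose were Gfer, Dnlz, Spg7, Phb2 and Oxa1l, by 0.30 to 0.67.

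Of 10 regulators of stress responses or mitochondrial gene expression, 8 were measured. Atf4, a transcription factor of the integrated stress response, rose by 0.51 ± 0.11 at 1 week (adjusted p = 0.00780, limma) and by 0.76 ± 0.11 at 4 weeks (adjusted p = 1.29e-05). Its target Ddit3, which encodes CHOP, rose by 0.97 ± 0.20 (adjusted p = 0.00582) and by 1.36 ± 0.20 (adjusted p = 1.76e-05). These were the 2 regulators called at 1 week, where 1.86% of all genes were higher and 2.44% lower. After 4 weeks, 5 of the 8 rose and 1 fell, against 13.4% of all genes higher and 12.4% lower. At 4 weeks Hsf1, the heat shock factor, rose by 0.44 ± 0.10, Nrf1, a factor of nuclear genes for mitochondria, by 0.47 ± 0.13, and Tfam, which packs mitochondrial DNA, by 0.35 ± 0.09. At 1 week these 3 had 0.00, 0.03 and 0.18. Ubl5, a ubiquitin-like protein of the mitochondrial stress response in worms, fell by 0.41 at 4 weeks (adjusted p = 0.0398) and had 0.06 at 1 week. Cebpb had 0.01 and -0.30, and Yy1 -0.03 and -0.16, and neither was called. None of the 8 regulators was called for diet by time in limma, against 5.75% of all genes. At an unadjusted p below 0.05, 2 were higher and 1 lower, against 21% of all genes in either direction.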

How the data were processed

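Liver RNA of 24 rats was hybridised to 1-colour Affymetrix arrays. The deposited values are probe set intensity on the unlogged scale after RMA (robust multi-array average) by the authors, per the submitters' processing notes, with no version given. RMA subtracts background, equalises the arrays and summarises probes, so small differences can shrink. The values run from 3.27 to 15793, with array medians of 42.4 to 45.5. They carry no detection call. Precision is limited by the number of arrays.

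Intensities were used as log2. The annotation names a single gene for 18644 of the 29214 probe sets, and these were analysed. Those with several symbols (962) or without a symbol (9608) were not. For genes with several probe sets, the one with the highest mean was kept. The 38 genes rest on 43 probe sets, 5 genes having a second one. Timm23, Timm23b, Tomm5 and Grpel2 (4 symbols) had shared probe sets only.

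Group means were fitted for all 17245 genes with limma 3.58.1 in R 4.3.3 (lmFit and eBayes, 20 residual degrees of freedom). A gene was called at a two-sided Benjamini-Hochberg adjusted p below 0.05 over all genes, and such p-values are from limma. Rose and fell mean called higher or lower on 5% protein, or at 4 weeks. Standard errors had a median of 0.10 for a diet difference. A Python script (version 3.11.15 with pandas 2.3.3) took ranges and searched promoters for the letters spelled out with the results and for the NRF1, YY1 and heat shock consensus, on both strands. The model was tested on simulated data.

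The genes, the lists and the tests were chosen with earlier results of these data known. By rule, values were given in full for Lonp1, Clpp, the 5 largest rises and falls at 4 weeks, the 3 smallest p at 1 week, the 3 largest called diet by time differences, the 2 largest called changes over time on each diet, and the 2 highest and 2 lowest means. Partners with the 4 smallest p and all regulators were given. Clpx and other examples were picked after their values were seen. The alternatives were quantile normalization, median centring, an offset of 16, the mean over probe sets, every probe set, a filter on the dimmest genes, a trended and robust eBayes, only the groups compared, the letter and the number of a code in the titles, the runs of animal numbers and each animal left out.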

Additional observations from a re-analysis of the deposited data

Results flagged for a closer look

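Within the groups of 6, single animals stood apart from the rest in 9 of 152 checks of a gene in a group, where chance gives about 7.6 (1 in 20). The share of the group's range taken by the gap to the next animal is given, each above Dixon's critical value. Dnaja3 was high in animal 23 on 5% protein at 4 weeks (0.626, a value of 10.52 against 9.96 to 10.17) and low in animal 53 on 20% protein at 1 week (0.657). Tomm40l was low in animal 23 (0.805) and high in animal 53 (0.896), the same animals. At 1 week on 5% protein, Hspe1 was low in animal 50 (0.710), Timm22 high in animal 54 (0.669) and Tomm20l low in animal 74 (0.673). Timm21 was low in animal 26 on 5% protein at 4 weeks (0.742), and Tomm6 was low in animal 51 on 20% protein at 1 week (0.723).

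The diet effect was larger at 4 weeks than at 1 week for 8 genes in the test of that difference (limma). The log2 differences were 1.17 for Lonp1, 0.87 for Tomm40, 0.81 for Hspd1, 0.72 for Timm8a1, 0.56 for Clpp, 0.50 for Afg3l2, 0.49 for Hspa9 and 0.45 for Htra2.

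At 1 week the diet effect differed between the runs of animal numbers for another set of 8, of which only Tomm40 is in both. Run 4 minus run 2 gave 1.08 for Timm9, 0.98 for Tomm40, 0.79 for Timm29, 0.61 for Tomm70 and 0.60 for Tomm20, and -0.66 for Timm17b, -0.52 for Tomm7 and -0.52 for Pmpcb.

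Probe sets that pair with several symbols were left out of the comparisons. In a fit of all probe sets, the one shared by Timm10b and Fxc1-ps1 was 0.46 higher on 5% protein at 4 weeks (adjusted p = 0.0104, limma). Of 3 probe sets shared by Timm23, the channel of the presequence translocase, and Timm23b, 1 was called at 0.21 (adjusted p = 0.0458). The other two had 0.22 and 0.21 (adjusted p = 0.0553 and 0.0530).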

How the results depend on the processing

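No value of a called gene changed sign under any alternative run. The calls of Lonp1, Clpp, Timm8a1, Hspa9, Afg3l2 and Timm17b at 4 weeks held under every alternative run and without any single animal, which is 6 of 21. Among the alternatives, run 3 has 1 animal on 5% protein and borrows its spread from the other groups. With it set aside 11 of 21 held, and 19 of 21 held without any single animal. Leaving out each animal gave 17 to 20 higher and 2 to 5 lower at 4 weeks (5 without 20% animal 30), 1 to 3 and 0 to 2 at 1 week, 6 to 10 and 0 for diet by time, 0 and 3 to 6 over time on 20% protein, and 2 to 5 and 0 to 1 over time on 5% protein. The cause of the changes below was not tested. At 1 week, 2 genes rose and 1 fell. The higher count was 1 with only the groups compared, 1 with the letter of the title code as a random block and 8 in run 4 alone. The lower count was 2 with the dimmest genes filtered out, 2 in run 2 and 2 in run 4 alone, and 0 with only the groups compared, with quantile normalization and with the letter. At 4 weeks the higher count of 19 became 7 in run 3, and the lower count of 2 became 1 in run 1, in run 3 and with the run as a covariate. With that covariate 15 rose, and Hspe1, Timm44, Timm9, Tomm20l2 and Timm22 were not called. Over time on 20% protein the lower count of 5 became 3 with only the groups compared, 3 with quantile normalization and 2 with the letter. Over all genes at 1 week (321 higher and 420 lower), the letter gave 168 and 168, run 2 alone 494 and 812, run 4 alone 696 and 768, and leaving out 5% animal 74 gave 213 and 205. At 4 weeks (2308 and 2147), run 1 alone gave 1434 and 1300 and run 3 1178 and 946. For diet by time, 8 of the 38 rose, 6 with the run covariate and 7 with the code's number. Over all genes (611 and 380), the run covariate gave 311 and 175, and leaving out single animals 360 to 890 and 219 to 519. Over time on 20% protein (176 and 259), only the groups compared gave 117 and 175, the letter 81 higher of 202 called, and single animals left out 113 to 229 and 151 to 338. On 5% protein (716 and 713) they gave 403 to 901 and 386 to 754. No paired analysis was possible because every rat, by its number in the titles, was in a single group. The number of arrays limits what can be seen, and for dim probe sets such as Tomm20l no signal over background is known.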
